A study of Arabidopsis thaliana with 6 samples.

Results

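The genes described are GID1A (AT3G05120) and GID1B (AT3G63010), which encode gibberellin receptors of Arabidopsis thaliana. They were found by their RefSeq symbols among probe sets that list a single gene, and are 2 of the 13286 genes measured in this way. Each gene had 1 probe set, 259302_at for GID1A and 251200_at for GID1B, and both genes lie on chromosome 3. Transcript levels came from Affymetrix ATH1 arrays hybridised with RNA of whole seedlings in the Col-0 background. Wild type (WT) was compared with the yaf9a yaf9b double mutant, with 3 arrays per genotype from independent biological replicates. All seedlings were 20 days old and untreated, came from agar plates kept at 22 °C in short days (8 h light, 16 h dark), and were taken as the lights went off, at ZT8. The labels name no alleles. YAF9A and YAF9B encode subunits shared by the histone-acetylating NuA4 complex and by SWR1, which places the histone variant H2A.Z.

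Gibberellins are growth hormones that promote germination, stem elongation and flowering. GID1 proteins are soluble receptors. With a bioactive gibberellin bound, GID1 takes hold of a DELLA protein, a nuclear repressor of growth. The F-box protein SLY1 then marks the DELLA protein for destruction by the proteasome. Arabidopsis has GID1A, GID1B and GID1C, whose functions overlap, and plants that lack all of them are severe dwarfs. GID1A and GID1C are the closer pair in sequence, and GID1B forms a branch of its own.

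All 6 arrays were alike in scale, with median log2 signals between 5.99 and 6.06. Correlations across probe sets were 0.98 to 0.987 between genotypes and at least 0.989 within them. Among probe sets that list a single gene, none is listed under YAF9A or YAF9B in the annotation used. Probe sets that list several genes were not searched for them, so the mutated genes gave no check of the genotype labels. Of 18 leaf, root, flower and seed markers, 7 were measured. The 4 leaf markers lay between 12.16 and 13.95 on every array. Of the 3 root markers, PYK10 lay between 11.82 and 12.43, EXPA18 between 4.66 and 5.34 and EXPA7 between 3.39 and 3.77. No flower or seed marker had a probe set of its own in the annotation used. Of the 7 markers only LHCB4.2, of the photosystem II antenna, changed, with a log2 change of -0.33 ± 0.0876 (SE; limma adjusted p = 0.0434), and 1 of 7 is near the 13.1% of all probe sets that changed. That call ended without each array in turn (limma adjusted p 0.0521 to 0.158) and after median centring (0.0631). The part of tissue makeup in the receptor values was not tested. In whole seedlings, fewer cells of a type and less RNA per cell cannot be told apart.

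The first question was whether loss of YAF9A and YAF9B altered the transcript levels of GID1A and GID1B. Neither gene passed the test, and for neither did the genotypes separate on the arrays. GID1A had a log2 signal of 8.51 ± 0.0907 in WT and 8.6 ± 0.0781 in the mutant (mean ± SD, n = 3 arrays each). GID1B had 5.8 ± 0.332 in WT and 5.76 ± 0.208 in the mutant. Thus 0 of the 2 genes changed at a limma adjusted p under 0.05, in a comparison in which 13.1% of 22746 probe sets did. At an unadjusted limma p under 0.05, it was again 0 of 2, against 27.8% of all probe sets.

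GID1A gave log2 signals of 8.58, 8.55 and 8.41 on WT arrays 1, 2 and 3. On mutant arrays 1, 2 and 3 it gave 8.51, 8.64 and 8.65. Mutant arrays 2 and 3 were the highest of the 6 and WT array 3 the lowest, while mutant array 1 fell among the WT arrays. The whole span of the 6 arrays was 0.24. The log2 change, mutant minus WT, was 0.09 ± 0.0898 (SE), a ratio of 1.06 (limma adjusted p = 0.602). Its 95% interval ran from -0.12 to 0.29 on the log2 scale, which is from 1.09-fold lower to 1.23-fold higher in the mutant. GID1A was a steadily measured gene, since only 20.3% of probe sets had a smaller residual SD than its 0.0847. With the limma SE of 0.0898, a log2 difference of 0.33, or 1.25-fold, would have passed the threshold.

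GID1B gave log2 signals of 5.57, 5.65 and 6.18 on WT arrays 1, 2 and 3. On mutant arrays 1, 2 and 3 it gave 5.89, 5.87 and 5.52. The highest of the 6 values was WT array 3 and the lowest was mutant array 3, but the mutant arrays 1 and 2 lay above WT arrays 1 and 2. The span of the 6 arrays was 0.66, wider than that of GID1A. The log2 change was -0.04 ± 0.176 (SE), a ratio of 0.973 (limma adjusted p = 0.919). Its 95% interval ran from -0.45 to 0.37, which is from 1.36-fold lower to 1.29-fold higher in the mutant. The residual SD of GID1B was 0.277, and 92.5% of probe sets had a smaller one. With the limma SE of 0.176, a log2 difference of 0.64, or 1.56-fold, would have been needed for GID1B to pass. The sign of its small difference depended on single arrays, with a log2 change of 0.15 without WT array 3 and 0.08 without mutant array 3. With array quality weights it was 0.09.

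**Figure D1:**
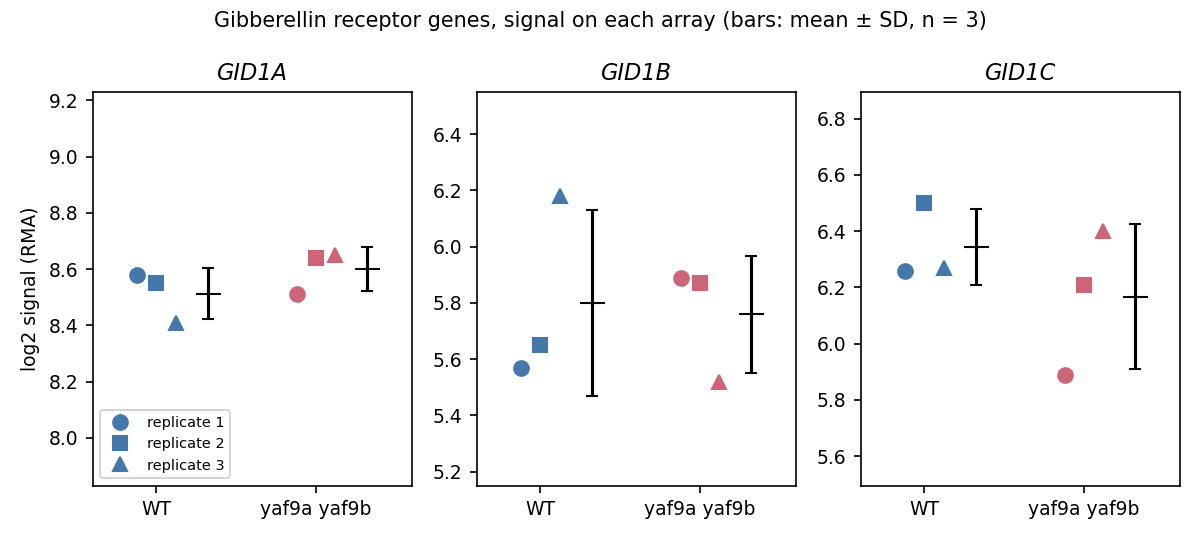
Log2 signal of GID1A, GID1B and GID1C on each of the 6 arrays, with WT in blue, yaf9a yaf9b in red, the marker shape giving the replicate number and black bars the mean ± SD of 3 arrays. All panels span the same number of log2 units; GID1A varied over 0.24 and GID1B over 0.66, and the genotypes overlap in each panel.

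GID1C (AT5G27320), the remaining receptor gene, also had a probe set of its own. It gave log2 signals of 6.26, 6.5 and 6.27 on WT arrays 1, 2 and 3, and 5.89, 6.21 and 6.4 on the mutant arrays. Its log2 change was -0.18 ± 0.141 (SE; limma adjusted p = 0.479), with a 95% interval from -0.5 to 0.15. Here mutant array 1 was the lowest value and WT array 2 the highest, and mutant array 3 lay above WT arrays 1 and 3. None of the 3 receptor genes therefore passed the limma threshold, and 0 of the 3 had genotypes that did not overlap, against 31.6% of all probe sets. At an unadjusted limma p under 0.05 it was 0 of the 3 as well.

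Whether the receptor genes moved unequally was tested on their difference within each array, since the signals of different probe sets cannot be set against each other as levels. The change of GID1A exceeded that of GID1B by 0.13 on the log2 scale (exact two-sided permutation test over arrays, p = 0.8). The change of GID1A exceeded that of GID1C by 0.26 (exact permutation p = 0.2), and that of GID1B exceeded that of GID1C by 0.14 (exact permutation p = 0.8). After Benjamini-Hochberg adjustment over the 3 pairs, the exact permutation p-values were 0.8, 0.6 and 0.8. With 20 ways to split the arrays, no p below 0.1 was possible, so this design could not have reached 0.05. The within-array difference GID1A minus GID1B was 3.01, 2.9 and 2.23 on WT arrays 1, 2 and 3, and 2.62, 2.77 and 3.13 on the mutant arrays. WT array 3, with GID1A low and GID1B high, gave the smallest difference, and mutant array 3, with GID1A high and GID1B low, gave the largest. The excess of GID1A over GID1B was -0.11 without WT array 3 and -0.02 without mutant array 3, so its sign rested on these arrays.

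Over the 6 arrays GID1A and GID1B ran in opposite directions, with a Pearson r of -0.762. GID1A with GID1C gave 0.248, and GID1B with GID1C gave -0.421. These are descriptions over 6 arrays that share their normalization and both genotypes.

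The genes whose log2 values followed each receptor gene most closely over the 6 arrays were sought among 13366 other probe sets of nuclear genes. For GID1A they were AT1G34640, AT4G38020 and AT1G36390, with Pearson r of 0.995, 0.991 and 0.986. All 3 were lowest on WT array 3 and highest on mutant array 2 or 3, as was GID1A, but over a wider span. AT1G34640 gave 7.57, 7.5 and 7.14 on the WT arrays and 7.44, 7.76 and 7.74 on the mutant arrays. For GID1B they were AT1G11670, RAB6A, which encodes a small GTPase of the Golgi, and AT2G19630, with r of 0.997, 0.994 and 0.982. All 3 were highest on WT array 3 and lowest on mutant array 3, as was GID1B. AT1G11670 gave 5.72, 5.78 and 6.2 on the WT arrays and 6, 5.94 and 5.68 on the mutant arrays. RAB6A and AT2G19630 moved over narrower ranges, from 9.19 to 9.45 and from 3.03 to 3.29. The probe set of AT2G19630 was among the 40% with the lowest mean signal. None of the 6 passed the limma threshold (adjusted p 0.316 to 0.939). An r above 0.9 was reached by 145 probe sets for GID1A and by 96 for GID1B, so the named ones are the top of a longer list. They were picked as the highest of 13366 over the same 6 arrays, where unrelated genes can also reach a high r. These r values therefore do not show shared expression, which was not tested. Left-out arrays and other scalings changed which genes came first, and after cyclic loess the lowest r of the 3 with GID1B was 0.805.

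**Figure D2:**
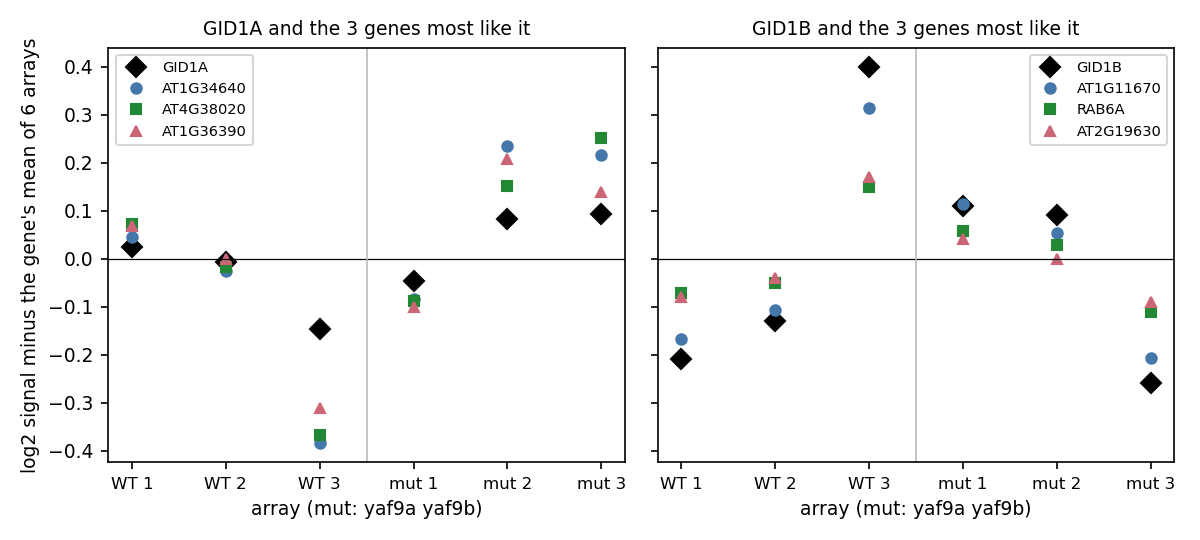
Log2 signal minus each gene's mean over the 6 arrays, by array, for GID1A (left) and GID1B (right) and the 3 genes with the highest Pearson r to each; the grey line parts WT from yaf9a yaf9b arrays. WT array 3 is lowest in the left panel and highest in the right, and mutant array 3 is the lowest in the right.

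Of the other gibberellin genes, 6 of 50 listed had a probe set of their own in the annotation used. By limma at an adjusted p under 0.05, 0 of the 6 were higher and 0 lower in the mutant, while 6.52% of all probe sets were higher and 6.61% lower. At an unadjusted limma p under 0.05 there was 1 of the 6, XERICO, beside 27.8% of all probe sets. The median log2 change of the 6 was -0.11. The 5 DELLA genes, the 5 genes of early and 9 of late gibberellin synthesis and the 9 of inactivation were not analysed here. None had a probe set of its own in that annotation, which does not show that the array lacks them.

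The F-box genes act directly after the receptors. SLY1 gave 7.79, 7.89 and 7.86 on the WT arrays and 8.02, 7.95 and 7.93 on the mutant arrays. Every mutant array lay above every WT array, yet the log2 change of 0.12 ± 0.0806 (SE) did not pass (limma adjusted p = 0.393). SLY2, also called SNE, encodes an F-box protein related to SLY1. It gave 3.69, 3.73 and 3.84 on the WT arrays and 3.88, 3.98 and 3.99 on the mutant arrays, with a log2 change of 0.2 ± 0.0854 (SE; limma adjusted p = 0.181). Its genotypes did not overlap either, and its probe set was among the 40% with the lowest mean signal.

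SPY and SEC encode enzymes that attach sugars to DELLA proteins, fucose by SPY and N-acetylglucosamine by SEC. SPY had a log2 change of -0.15 ± 0.0974 and SEC of -0.06 ± 0.0905 (SE; limma adjusted p = 0.363 and 0.718), and the genotypes overlapped for both. XERICO, a RING-type gene linked to abscisic acid and induced by DELLA proteins, gave 9.21, 9.21 and 9.05 on the WT arrays and 8.95, 8.69 and 8.9 on the mutant arrays. Every mutant array lay below every WT array, but the log2 change of -0.31 ± 0.101 (SE) did not pass (limma adjusted p = 0.0859). With array quality weights, under which 4278 probe sets passed rather than 2985, XERICO passed, at -0.4 (limma adjusted p = 0.0265). It passed in no other alternative (limma adjusted p up to 0.269). The other measured gene listed as a gibberellin target, AT1G22690, had a log2 change of -0.15 ± 0.11 (SE; limma adjusted p = 0.44). Of the 6 genes, 3 had genotypes that did not overlap, as had 31.6% of all probe sets.

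GID1 proteins share their fold with plant carboxylesterases, enzymes that cleave esters, but have lost that activity. Of 7 genes named as carboxyesterases (CXE) in RefSeq, 3 were measured, of which 2 rose and 0 fell, beside 6.52% and 6.61% of all probe sets. CXE18 gave 4.93, 4.67 and 5.06 on the WT arrays and 5.37, 5.84 and 5.48 on the mutant arrays, a 1.6-fold rise (log2 change 0.68 ± 0.149, limma adjusted p = 0.0238). CXE20 gave 4.96, 4.97 and 5.01 on the WT arrays and 5.26, 5.3 and 5.41 on the mutant arrays, a 1.27-fold rise (0.34 ± 0.0825, limma adjusted p = 0.0319). CXE16 did not pass (-0.23 ± 0.105, limma adjusted p = 0.2). The CXE18 call ended without WT array 1 or 2 or mutant array 2 (limma adjusted p = 0.0579, 0.0802 and 0.0819). The CXE20 call ended without each array in turn (limma adjusted p 0.0563 to 0.104). It also ended with a trended, robust variance model (limma adjusted p = 0.0736). The 95% interval of the CXE18 change, 0.33 to 1.02, lay above that of GID1A but overlapped that of GID1B, -0.45 to 0.37. That of CXE20, 0.15 to 0.53, overlapped both. The differences between these genes were not tested.

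**Figure D3:**
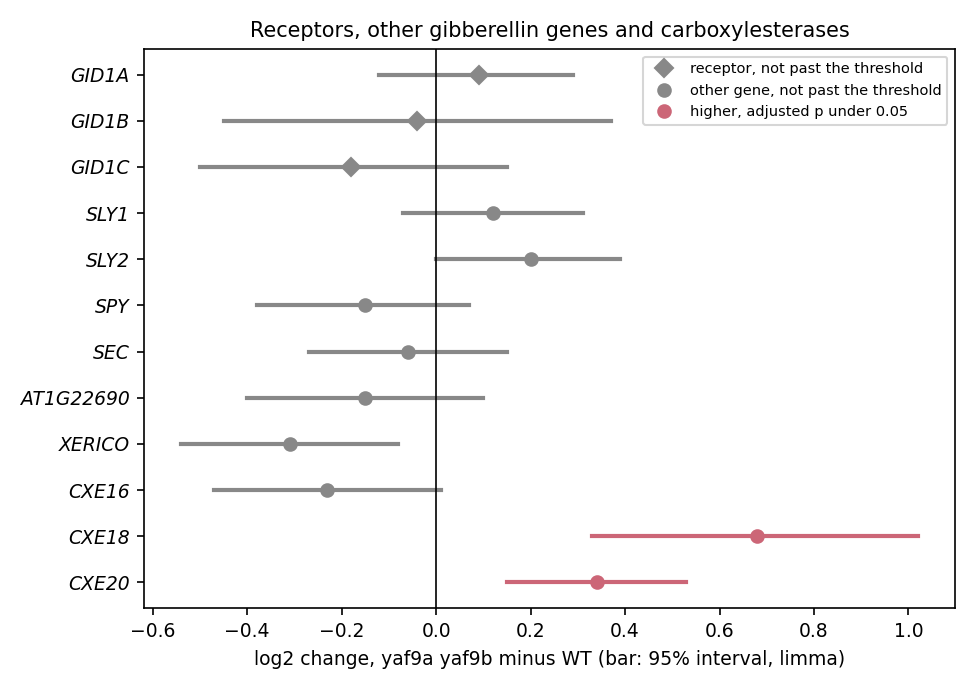
Log2 change, yaf9a yaf9b minus WT, with its 95% interval from limma, for the 3 receptor genes (diamonds), the 6 other measured gibberellin genes and the 3 measured carboxyesterase genes; red marks an adjusted p under 0.05. The intervals of GID1A, GID1B and GID1C hold 0, and CXE18 and CXE20 stand above it at 0.68 and 0.34.

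The genes around each receptor gene in the TAIR10.1 annotation were examined next, taking the nearest 2 protein-coding genes on each side that had a probe set of their own. Of these 8 genes, 0 passed the limma threshold, beside 13.1% of all probe sets, and 2 had an unadjusted limma p under 0.05, a share near the 27.8% of all probe sets. AT3G05110, AT3G05150, AT3G62960, AT3G63020 and AT3G63040 had probe sets among the 40% with the lowest mean signal. Beside GID1A, AT3G05110 and AT3G05130 adjoin it directly and had log2 changes of 0.15 ± 0.109 and -0.02 ± 0.122 (SE). Farther out, AT3G05100 had -0.03 ± 0.118, and AT3G05150 had 0.43 ± 0.125 (limma adjusted p = 0.0618). AT3G05150 gave 4.73, 4.44 and 4.89 on the WT arrays and 5.2, 5.02 and 5.12 on the mutant arrays, which do not overlap. It passed without WT array 3, after cyclic loess and with array quality weights (limma adjusted p = 0.0402, 0.0452 and 0.0417). Beside GID1B, AT3G63020 adjoins it directly and had a log2 change of 0.19 ± 0.094. Farther out, AT3G63040, 3 protein-coding genes away, had -0.06 ± 0.109, and AT3G62960, 5 away, had -0.13 ± 0.115. AT3G62970, 4 away, gave 7.92, 7.85 and 7.89 on the WT arrays and 7.63, 7.63 and 7.67 on the mutant arrays. Its log2 change was -0.24 ± 0.0773 (limma adjusted p = 0.0791). It passed with array quality weights (limma adjusted p = 0.0404) and in no other alternative.

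The results for GID1A and GID1B were recomputed under 13 alternatives each. The log2 change of GID1A stayed between 0.04 and 0.13, with limma adjusted p between 0.437 and 0.849. That of GID1B lay between -0.15 and 0.15, with limma adjusted p between 0.526 and 0.982. Neither gene passed the threshold in any of these fits.

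**Figure D4:**
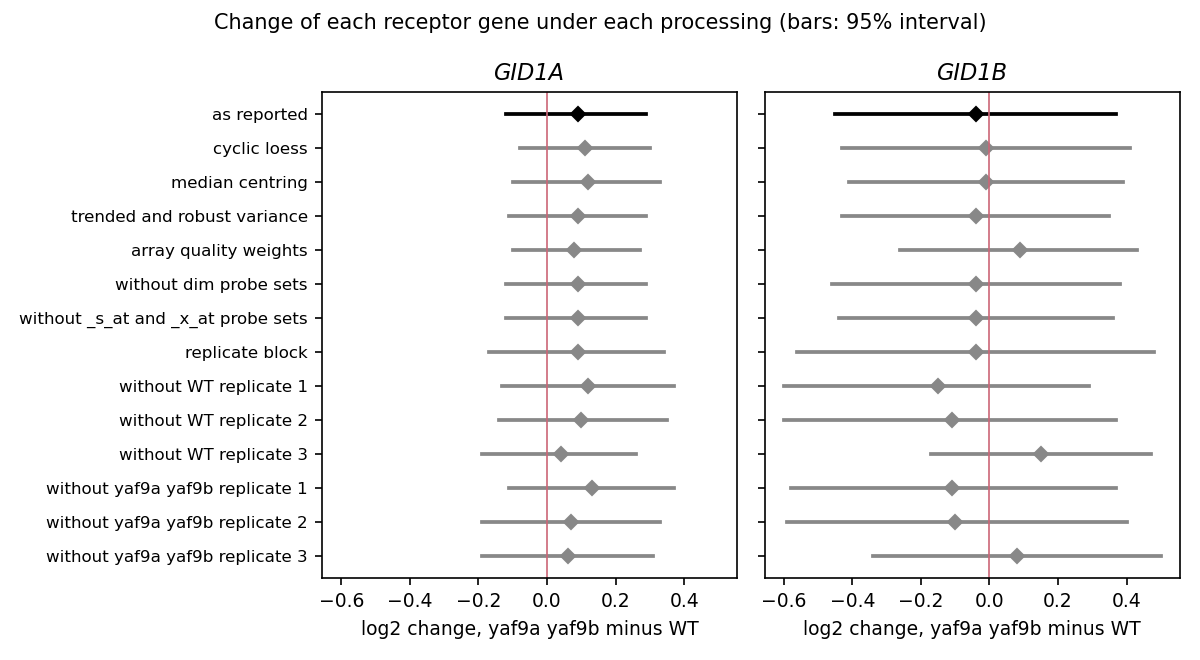
Log2 change, yaf9a yaf9b minus WT, of GID1A (left) and GID1B (right) with its 95% interval as reported (black) and under each of 13 alternatives (grey); the red line marks 0. Every interval holds 0, and the GID1B value moves from -0.15 without WT array 1 to 0.15 without WT array 3.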

How the data were processed

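The deposited values are log2 signals of single arrays, made with RMA in the affy package, per the submitters' processing notes. Versions, the genome build and scan dates were not given in the sources used here, so no batch could be checked. Because RMA equalises the distributions of the arrays, a global shift of most transcripts cannot be seen. Titles gave the genotype, 3 arrays each. For arrays, their number limits the precision.

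After leaving out 64 control probe sets of 22810, the 22746 others were fitted in R 4.3.3 by limma 3.58.1 (lmFit, then eBayes) without a filter or block. Two-sided p-values for mutant minus WT were adjusted over all of them by Benjamini-Hochberg, with a threshold of 0.05. The code was tested on simulated data. Gene names came from the platform annotation of GEO, updated by gene ID through the RefSeq table of TAIR10.1: 13436 list 1 gene found there, and 503 list several and were left unnamed. The remaining probe sets matched no gene there, so a gene not measured here may still have a probe set on the array. Gene lists used the probe set with the highest mean signal per gene. The text names every measured gibberellin gene, carboxyesterase genes past the threshold or with the smallest p, and the 3 genes with the highest r to each receptor gene. The carboxyesterase genes were found by RefSeq symbol and synonyms. Neighbouring genes were added after the annotation was seen. The members and lists were chosen with earlier results of these data known. All 3 receptor probe sets carry the suffix _at; cross-hybridisation between receptor genes was not tested. Alternatives were cyclic loess, median centring, array quality weights, eBayes with trend and robust, leaving out the 40% dimmest probe sets, leaving out suffixes _s_at and _x_at, the replicate number as a block, and leaving out each array.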

Additional observations from a re-analysis of the deposited data

How the results depend on the processing

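GID1A kept its direction and did not pass the threshold in any of 13 alternatives (0.04 to 0.13 on leaving out arrays). GID1B did not pass it either, but its log2 change turned to 0.09 with array quality weights and ranged from -0.15 to 0.15 on leaving out arrays. The excess of the GID1A change over the GID1B change ranged from -0.11 to 0.27 on leaving out arrays. The neighbours AT3G05100 and AT3G05130 changed sign as well, to 0.02 after cyclic loess and to 0.01 after median centring, and ranged from -0.12 to 0.06 and from -0.13 to 0.09 on leaving out arrays. The count of changed carboxyesterase genes, 2, was 1 with the trended variance model, 0 with a replicate block (limma adjusted p = 0.0852 for CXE18 and 0.0868 for CXE20, and 0.121 for LHCB4.2, which also lost its call) and 0 to 1 on leaving out arrays. The count of other gibberellin genes was 1 with array quality weights (XERICO, lower) and 0 otherwise. The count of 2985 changed probe sets was 4278 with array quality weights. On leaving out arrays it ran from 963 (without mutant array 2) to 2684, with 1380 without WT array 2 and 1924 without mutant array 1. It was 1233 with a replicate block. The cause of these changes was not tested.

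The labels state no pairing, so the replicate numbers were not taken as pairs. WT and mutant arrays numbered 1, 2 and 3 alike had correlations of -0.21, 0.01 and -0.32 between their deviations from the group means. In the same check, 0 of 6 arrays correlated best with their own number. With 3 arrays per genotype, these values cannot show that pairing is absent. Under the block, the log2 change of GID1A was 0.09 (limma adjusted p = 0.672) and that of GID1B was -0.04 (0.937). For the excess of GID1A over GID1B, 0.13, an exact test over the 8 sign flips of same-numbered pairs gave p = 1. Of the 3 genes most like each receptor gene, 0 to 2 were still among the top 3 under cyclic loess, median centring or leaving out an array, alternatives chosen after seeing the data.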
